A study of Mus musculus with 24 samples.

Results

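Neural stem and progenitor cells (NSPCs) that carried no functional *Kat6a* allele were compared between 2 culture conditions, differentiating and proliferating. The 8 *Kat6a*–/– libraries of the series, labelled HOM KO, made up both groups, 4 differentiating and 4 proliferating, out of 24 libraries in all. The other 16 were from *Kat6a*+/+ (WT) and *Kat6a*+/– (HET KO) NSPCs, 4 of each genotype per condition. Choice of these libraries used only their genotype and condition labels and no measured value. All 8 came from the dorsal telencephalon of mouse embryos at E12.5, during early cortical neurogenesis, from intercrosses of *Kat6a*+/– mice on a C57BL/6 background. The null allele lacks internal exons, and the shifted reading frame stops early in the part that encodes the catalytic domain. Proliferating NSPCs were grown as neurospheres in medium with FGF2, EGF and heparin, in which *Kat6a*–/– cells also stuck to the dish. Differentiating NSPCs were kept for 3 days on poly-L-ornithine and laminin in medium with 1% serum and neither FGF2 nor EGF. RNA was extracted with an RNeasy mini kit from proliferating cells and with an RNeasy micro kit from differentiating cells, so that medium, surface, serum and kit changed together and cannot be told apart. Stranded mRNA libraries were made from 200 ng of RNA. Differentiating replicates 1 to 4 carried the embryo labels 4633_4, 4633_6, 4746_4 and 5063_1, and proliferating replicates 1 to 4 carried 4633_1, 4633_6, 4746_4 and 5063_1. Both groups therefore held the same 3 litters, and 3 embryo labels occurred in both.

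Telencephalic stem cells in FGF2 and EGF divide with the features of radial glia, the cells that line the embryonic ventricle and give rise first to neurons and later to astrocytes and oligodendrocytes. Without these factors they leave the cell cycle, and serum, which carries BMPs and other signals, favours astrocyte-like over neuronal fates in culture. KAT6A is a histone acetyltransferase that works in a complex with BRPF1, ING5 and MEAF6 and helps to keep developmental genes active. The comparison asks what the change of medium did to gene activity in cells that lacked it.

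Total counts were 7826660 to 9775640 per proliferating library and 15914428 to 20246346 per differentiating library. Values are given in CPM, the count of a gene scaled by TMM to a common library total, in the order of replicates 1 to 4. Log2 fold-changes are fitted values for differentiating relative to proliferating NSPCs, with their standard error (SE) and false discovery rate (FDR) over all genes tested. In a principal component analysis, component 1 (82.5% of variance) separated the conditions. On it, proliferating replicate 4 lay at −63.4 and the other 3 proliferating libraries between −97.7 and −91.2, while the differentiating libraries lay between 82.1 and 91.6. The second component held 9.23% and spread the differentiating libraries, with replicates 1 and 3 at 44.9 and 31.6 and replicates 2 and 4 at −58.4 and −16.7. Library quality weights were lowest for differentiating replicate 2 (0.228) and proliferating replicate 4 (0.365) against 0.675 to 2.56 for the rest, so results that rest on these 2 libraries are also given without them. In bulk RNA, fewer cells of a type and less RNA per cell cannot be told apart.

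**Figure D1:**
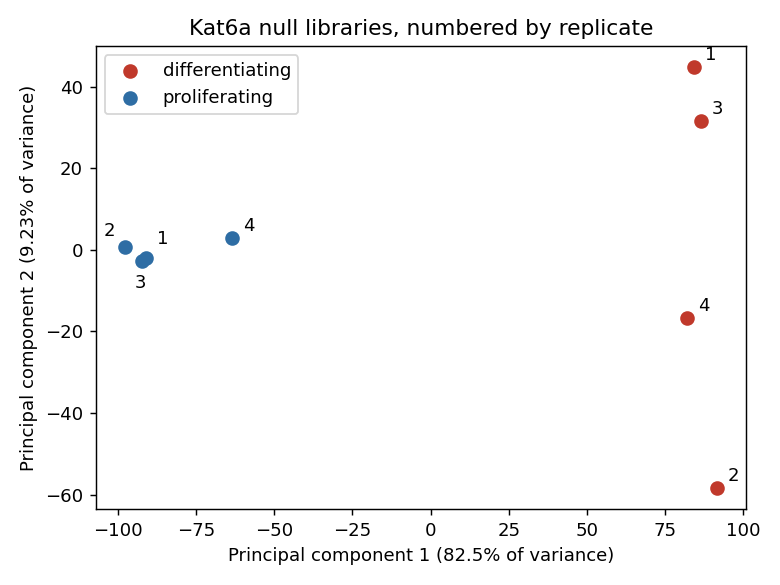
Principal components 1 and 2 (arbitrary units) of log2 CPM over the 12752 tested genes in the 8 *Kat6a*–/– libraries, 1 point per library, labelled by replicate. The conditions separate on component 1, proliferating replicate 4 sits nearest to the differentiating libraries, and the differentiating libraries spread along component 2.

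Of 12752 genes tested, 7701 were called at an FDR under 0.05, or 60.4%. Higher levels in differentiating NSPCs made up 3851 of these calls (30.2% of genes tested) and lower levels 3850 (30.2%), and counts of higher or lower members below are to be read against these shares. The 4 differentiating libraries lay all above or all below the 4 proliferating libraries for 7666 genes, or 60.1%. A called log2 fold-change beyond 1 was found for 3944 genes, 2204 higher and 1740 lower, and one beyond 3 for 604 higher and 333 lower genes. The median log2 fold-change over all genes tested was 0.02. Among called genes, 7618 of 7701 had the same sign in all 3 litters.

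*Kat6a* itself (mm39 chromosome 8, 23349545 to 23433275) was at 156, 247, 159.6 and 183 CPM in differentiating and 385, 349, 334 and 326 CPM in proliferating NSPCs, a log2 fold-change of −0.93 (SE 0.16, FDR 0.00107), and the groups did not overlap. These counts cover the whole gene, the remaining exons of the null allele included, and do not check the genotype labels. Its paralog *Kat6b* rose by 0.41 (SE 0.09, FDR 0.00404). Among 15 genes for subunits of the KAT6A complex and related acetyltransferases and MLL partners, 2 rose and 11 fell, with a median of −0.37. *Ing5*, a subunit with a histone-binding finger, was at 11.9, 7.66, 14.04 and 9.97 CPM in differentiating and 26.95, 34.3, 35.2 and 23.3 CPM in proliferating NSPCs, and *Brpf1*, the scaffold of the complex, fell by 0.60 (SE 0.12, FDR 0.00234).

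Genes of the division cycle fell in differentiating NSPCs almost without exception. All 45 tested genes for S phase and DNA replication fell, with a median log2 fold-change of −2.99, and 44 of 45 genes for G2 and mitosis fell, with a median of −4.14. *Mki67*, the gene of the Ki-67 proliferation antigen, was at 19.1, 8.64, 18.7 and 47.8 CPM in differentiating and 913, 807, 782 and 474 CPM in proliferating NSPCs, a log2 fold-change of −5.25 (SE 0.45, FDR 3.29e-05). *Top2a*, which untangles chromosomes before they part, was at 29.2, 12.99, 29.7 and 62.9 against 799, 781, 779 and 450.3 CPM. For both genes, differentiating replicate 4 was the highest of its group, proliferating replicate 4 was the lowest of its group, and the groups stayed far apart. *Cdk1*, the kinase that starts mitosis, went from 173 ± 36.7 CPM to 16.01 ± 7.44 CPM (mean ± SD, n = 4), and its partner *Ccnb1* fell by 4.55 (SE 0.42, FDR 4.73e-05). Of the replication genes, *Rrm2*, a subunit of the enzyme that makes deoxyribonucleotides, was at 9.51, 7.92, 11.8 and 23.7 CPM in differentiating and 339, 281, 361 and 220.4 CPM in proliferating NSPCs. *Cdc6*, which loads the replicative helicase, had the largest fall of its list at −5.04 (SE 0.44, FDR 3.44e-05). *Pcna*, the sliding clamp, fell least among the named replication genes, by 1.82 (SE 0.18, FDR 5.59e-05), from 169 ± 37.02 to 47.2 ± 5.14 CPM. Within the litters the median change of the G2 and mitosis list was −4.65, −4.21 and −2.45, the last being the litter of both replicates 4. Without differentiating replicate 2 and proliferating replicate 4, 45 of 45 and 44 of 45 genes of the 2 lists were still called lower.

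The promoters of 4 of these genes are printed because the windows before start sites of cell cycle genes often hold short shared motifs. They are the 250 bases before the RefSeq start site on GRCm38.p6, on the gene's own strand and 5′ to 3′. Capitals mark the letters TTTGAA, known as the CHR element, and CCAAT, on either strand, in *Mki67*, *Top2a* and *Cdk1*, and the letters TTTCCCGC or TTTGGCGC, forms of the E2F site, on either strand, in *Cdc6*.
Mki67 (chr7:135716380-135716629, minus strand): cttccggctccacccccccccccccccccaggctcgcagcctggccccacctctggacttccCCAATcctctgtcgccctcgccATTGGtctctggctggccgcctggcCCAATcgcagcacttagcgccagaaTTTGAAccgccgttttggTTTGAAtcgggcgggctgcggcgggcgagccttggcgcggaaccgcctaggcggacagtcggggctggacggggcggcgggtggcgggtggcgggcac
Top2a (chr11:99024190-99024439, minus strand): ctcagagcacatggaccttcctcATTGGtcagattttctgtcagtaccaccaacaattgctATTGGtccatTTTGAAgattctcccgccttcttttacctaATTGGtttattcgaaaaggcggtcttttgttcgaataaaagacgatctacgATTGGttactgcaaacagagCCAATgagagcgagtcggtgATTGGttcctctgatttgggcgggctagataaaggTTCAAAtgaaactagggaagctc
Cdk1 (chr10:69352913-69353162, minus strand): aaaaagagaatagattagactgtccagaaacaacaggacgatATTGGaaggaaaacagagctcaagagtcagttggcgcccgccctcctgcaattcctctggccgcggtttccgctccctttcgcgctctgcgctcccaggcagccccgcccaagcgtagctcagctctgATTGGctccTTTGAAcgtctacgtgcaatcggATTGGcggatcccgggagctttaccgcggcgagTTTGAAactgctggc
Cdc6 (chr11:98907901-98908150, plus strand): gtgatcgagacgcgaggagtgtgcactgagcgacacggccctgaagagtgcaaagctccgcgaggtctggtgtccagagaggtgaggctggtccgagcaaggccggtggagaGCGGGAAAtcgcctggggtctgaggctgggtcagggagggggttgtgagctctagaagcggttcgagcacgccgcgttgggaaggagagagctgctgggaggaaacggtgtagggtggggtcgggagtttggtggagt
A CHR element was found in 12 of 37 windows matched for the G2 and mitosis list (32.4%), against 10.3% of the 10233 windows of tested genes and 16.3% of all 27018 windows in the table. A CCAAT box was in 27 of them (73%, against 37.1% of tested genes and 34.5% of all windows), and both motifs together in 11 (29.7%, against 4.19% and 5.73%). E2F letters were in 7 of 36 windows of the S phase list (19.4%), against 2.64% of tested genes, 1.35% of all windows and 0 of 37 windows of the G2 and mitosis list. A match is a run of letters and not a bound site.

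A list that mixed brakes and drivers of the cycle moved both ways. Of 17 genes for CDK inhibitors, D-type cyclins and their partners, 7 rose and 5 fell, and brakes and drivers were not counted apart. *Cdkn2b*, which encodes the inhibitor p15, was at 92.5, 121, 79.9 and 82.4 CPM in differentiating and 9.62, 9.49, 11.5 and 17.5 CPM in proliferating NSPCs, a rise of 2.95 (SE 0.25, FDR 3.04e-05). *Cdkn1a*, which encodes p21, overlapped between the groups at 927, 228, 580.4 and 233 against 262, 255, 329 and 428 CPM (FDR 0.443). *Ccnd1*, cyclin D1, fell by 2.98 (SE 0.90, FDR 0.0183), but unevenly, with 486, 19.98, 255 and 75.9 CPM against 857, 938, 986 and 944 CPM, and by 1.86 without differentiating replicate 2 and proliferating replicate 4. *Ccnd2* was not called (FDR 0.316).

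Nucleolar genes fell with the cycle. Of 32 genes for ribosome biogenesis, 30 fell and none rose, with a median of −1.30. *Npm1*, nucleophosmin, was at 103, 92.8, 119 and 99.7 CPM in differentiating and 408, 424, 443 and 235 CPM in proliferating NSPCs, where replicate 4 was again the lowest of its group. *Nop56*, a core protein of box C/D ribonucleoproteins, had the largest fall of the list (−2.15, SE 0.21, FDR 5.56e-05). Among 83 genes for cytosolic ribosomal proteins, 48 fell and 1 rose, with a median of −0.62. This median was −0.74, −0.72 and −0.20 in the 3 litters. Ribosomal protein genes have many near-identical copies in the genome, so their single values are uncertain.

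**Figure D2:**
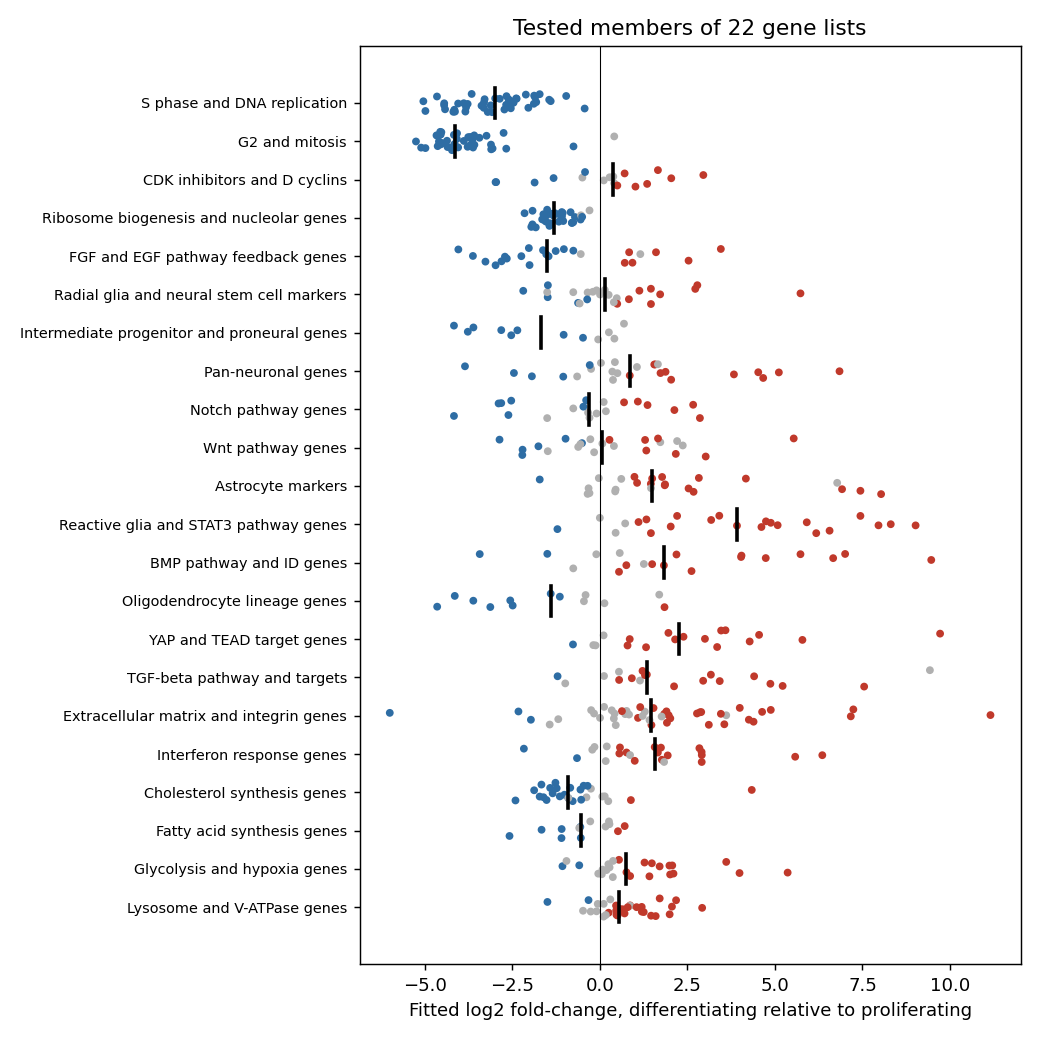
Fitted log2 fold-changes (differentiating relative to proliferating) of the tested members of 22 gene lists, 1 point per gene, with called genes in colour, uncalled genes in grey and a black bar at each list's median. The cell cycle lists lie wholly or almost wholly below 0, the ECM, YAP and TEAD, and reactive glia lists mostly above it, and the radial glia and Wnt lists on both sides.

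Transcripts that report FGF and EGF signalling went down. Of 24 genes for feedback regulators, receptors and targets of this pathway, 16 fell and 6 rose, with a median of −1.50. *Etv4*, a transcription factor induced by FGF, was at 20.2, 3.47, 15.6 and 10.6 CPM in differentiating and 171, 142, 141 and 197 CPM in proliferating NSPCs (log2 fold-change −4.04, SE 0.43, FDR 9.00e-05). *Spry4*, a feedback inhibitor of receptor tyrosine kinases, was at 144, 8.80, 72.7 and 31.9 against 464, 556, 433 and 545 CPM, and *Dusp6*, a phosphatase that switches off ERK, at 236, 11.3, 159.5 and 54.3 against 493, 473, 428 and 548 CPM. In these 3 genes the groups did not overlap, and differentiating replicates 1 and 3 were above replicates 2 and 4. Without differentiating replicate 2 and proliferating replicate 4, the fall of *Dusp6* was −1.65 in place of −2.81. *Myc* fell evenly, from 141 ± 23.2 to 22.2 ± 1.49 CPM (mean ± SD, n = 4), by 2.66 (SE 0.15, FDR 6.53e-06). *Egr1*, an immediate early gene, was at 28.5, 7.61, 17.1 and 13.2 against 438, 270.2, 172 and 374 CPM. The receptors moved in different directions, as *Egfr* fell by 1.62 (SE 0.15, FDR 4.79e-05) while *Fgfr2* rose by 3.45 (SE 0.25, FDR 1.82e-05).

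Radial glia and stem cell markers did not fall as a group. Of 25 such genes, 9 rose, 5 fell and 11 were not called, with a median of 0.14. Without differentiating replicate 2 and proliferating replicate 4, 8 rose and 8 fell. *Sox2*, a core stem cell factor, overlapped between the groups at 242, 431, 249 and 339 CPM in differentiating and 249, 243, 287 and 249.9 CPM in proliferating NSPCs (FDR 0.253). *Slc1a3*, a glutamate transporter of radial glia and astrocytes, overlapped as well, at 1065, 1824, 1107 and 1212 against 1306, 994, 1137 and 1741 CPM (FDR 0.986). *Fabp7*, a fatty acid-binding protein of radial glia, fell by 1.49 (SE 0.27, FDR 0.00139), and *Nes*, nestin, by 0.62 (SE 0.18, FDR 0.0137; FDR 0.0515 without proliferating replicate 2). *Pax6*, a factor of cortical progenitors, rose slightly, from 44.4, 42.8, 38.4 and 46.04 to 59.2, 67.8, 57.3 and 58.2 CPM. Of 12 tested SOX genes, 5 fell and none rose. *Sox3*, which marks undifferentiated progenitors, fell by 2.19 (SE 0.26, FDR 0.000162) and *Sox11*, a factor of new neurons, by 2.36 (SE 0.25, FDR 8.61e-05).

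Notch pathway genes were split, with 6 of 20 higher and 7 lower. The ligand *Dll1* was at 6.16, 10.3, 7.17 and 11.7 CPM in differentiating and 51.4, 55.9, 53.2 and 41.8 CPM in proliferating NSPCs, while the effector *Hey1* rose to 64.1, 178, 86.5 and 126 from 13.6, 16.2, 21.9 and 9.54 CPM. The receptor *Notch1* overlapped (FDR 0.709). Of 18 genes for intermediate progenitors and proneural factors, 12 passed the filter on low counts, 8 fell and none rose, with a median of −1.70. *Dll3*, a Notch antagonist of neuronal precursors, went from 12.1, 9.998, 11.4 and 9.34 CPM to 1.94, 0.776, 1.17 and 3.22 CPM, a log2 fold-change of −2.82 (SE 0.38, FDR 0.000283). Of the untested members, *Eomes* did not exceed 1.96 CPM, *Neurog2* 0.414 CPM and *Tbr1* 0.559 CPM in any library.

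Pan-neuronal genes did not move together. Of 25 tested, 11 rose and 5 fell, with a median log2 fold-change of 0.85. The summed level of the list was still lower in differentiating libraries (1624 to 2088 CPM) than in proliferating ones (2292 to 2490 CPM). *Map2* and *Gap43*, given below, made up a large part of the proliferating sum, so the sum does not describe the typical member. *Tubb3*, neuronal beta-tubulin, was at 60.3, 31.7, 44.5 and 39.7 CPM in differentiating and 1.23, 1.27, 3.11 and 2.24 CPM in proliferating NSPCs, a rise of 4.52 (SE 0.50, FDR 0.000106). *Map2*, which binds microtubules in dendrites, went the other way, from 1061, 1081, 1061 and 972 to 381, 703, 462 and 533 CPM, and so did *Gap43*, a growth cone protein, from 391, 364, 439 and 391 to 57.98, 127, 56.9 and 64.1 CPM. *Dcx*, the doublecortin gene of migrating neurons, stayed at or under 7.66 CPM in every library and was not called (FDR 0.797). *Reln*, the secreted protein of Cajal-Retzius cells, rose from 4.25, 3.16, 3.54 and 12.1 to 239, 334, 291 and 232 CPM (log2 fold-change 5.74, SE 0.37, FDR 1.11e-05). It was the only gene called higher of 9 tested markers of cortical glutamatergic neurons, of which 2 were lower. GABAergic markers were too few to describe, with 2 of 19 tested.

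Astrocyte markers rose. Of 24 tested, 14 rose and 1 fell, with a median of 1.48, and their summed level was 9073 to 21340 CPM in differentiating against 3466 to 4497 CPM in proliferating libraries. *Clu*, clusterin, was at 1239, 3155, 1411 and 1915 CPM in differentiating and 9.51, 3.29, 4.61 and 12.8 CPM in proliferating NSPCs, a log2 fold-change of 8.03 (SE 0.53, FDR 1.21e-05). *Gfap*, the intermediate filament of astrocytes, was at 144, 1857, 249.8 and 969 against 6.49, 1.90, 1.82 and 2.43 CPM (log2 fold-change 7.44, SE 1.64, FDR 0.00405). *Aqp4*, the water channel of astrocyte endfeet, was at 13.7, 818, 30.4 and 271 against 0.783, 0.633, 1.07 and 0.779 CPM. For both genes all differentiating libraries lay above all proliferating ones, with replicate 2 the highest and replicate 1 the lowest, and *Aqp4* was not called (FDR 0.162), though edgeR (FDR 0.00145) and limma with the replicate number as a block (FDR 0.00108) called it. *Glul*, glutamine synthetase, rose evenly, by 0.99 (SE 0.16, FDR 0.000668).

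BMP pathway genes rose, 13 of 19, with 2 lower and a median of 1.83. *Smad6*, an inhibitor that BMP signalling induces, was at 43.7, 31.4, 46.2 and 40.2 CPM in differentiating and 0.112, 0.253, 0.322 and 0.584 CPM in proliferating NSPCs (log2 fold-change 7.004, SE 0.61, FDR 3.44e-05). *Id1* and *Id3*, repressors of proneural factors and direct BMP targets, rose by 2.62 (SE 0.31, FDR 0.000141) and 1.49 (SE 0.17, FDR 0.000110). Of the ligands, *Bmp6* had 3177 counts over the differentiating and 1 count over the proliferating libraries, a ratio of 1724 with an exact 95% counting interval of 309 to 68130. Such intervals and floors cover counting error only. *Bmp7* fell, from 86.8, 103, 97.9 and 39.3 to 9.44, 7.50, 5.17 and 5.68 CPM.

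Genes of reactive glia and of the STAT3 pathway rose with the astrocyte markers, 19 of 23 with 1 lower and a median of 3.92. The receptor subunits *Osmr* and *Il6st*, which bind and transmit IL-6 family cytokines, were at 52.8, 113, 62.7 and 72.9 against 5.59, 1.77, 0.858 and 4.48 CPM and at 369, 786, 404 and 415 against 108, 105, 91.3 and 103 CPM. *Socs3*, a feedback inhibitor of STAT3, rose by 3.18 (SE 0.38, FDR 0.000164) and *Serpina3n*, a protease inhibitor of reactive astrocytes, by 4.61 (SE 0.59, FDR 0.000223). *Lifr*, the receptor for LIF, was the member that fell (173, 158, 142 and 140.4 to 65.7, 66.04, 64.8 and 66.99 CPM), and *Stat3* itself overlapped between the groups, with 344 ± 34.2 against 343 ± 30.2 CPM (mean ± SD, n = 4; FDR 0.997).

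Oligodendrocyte lineage genes fell, 8 of 13 with 1 higher and a median of −1.40. *Olig2*, the lineage's defining factor, was at 108, 68.4, 146 and 158 CPM in differentiating and 1026, 1033, 1040.4 and 919 CPM in proliferating NSPCs (log2 fold-change −3.13, SE 0.28, FDR 3.80e-05). *Pdgfra*, the receptor of oligodendrocyte precursors, fell by 2.49 (SE 0.30, FDR 0.000166) and *Nkx2-2* by 4.65 (SE 0.55, FDR 0.000147). *Zfp488*, an oligodendrocyte regulator, had 78 counts over the proliferating libraries and none over the differentiating ones, which is at least 47.9-fold lower against a floor of 3 counts over the group. *Sox10* stayed at or under 0.429 CPM in every library.

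Genes that mark the shift from early neurogenic to late gliogenic progenitors moved both ways, 4 of 21 higher and 11 lower, with a median of −0.77. *Nfix* and *Zbtb20*, factors of late progenitors and astrocytes, rose by 1.32 (SE 0.19, FDR 0.000438) and 1.83 (SE 0.22, FDR 0.000156). *Nfib*, of the same family as *Nfix*, was called lower, with log2 fold-changes of −0.683 to −0.542 over the 8 fits without 1 library. The early progenitor gene *Prtg* was called higher (1.81 to 2.13 over the same fits), so the named genes do not show a shift from early to late. *Hmga2*, a chromatin protein of early progenitors, was at 12.7, 0.311, 7.99 and 1.39 against 25.4, 34.8, 24.1 and 21.998 CPM. It was lowest in differentiating replicates 2 and 4, and its log2 fold-change of −3.41 was −2.17 without differentiating replicate 2 and proliferating replicate 4 and −2.25 by edgeR.

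The 12 largest rises among called genes with an average log2 CPM above 2 and no overlap between the groups were those of *Fmod*, *Ogn*, *Col8a1*, *Acta2*, *Ahnak*, *Plxdc1*, *Ccn2*, *Klhdc8a*, *Cemip*, *Scube3*, *Scg2* and *Pcp4*. *Fmod*, fibromodulin, a small proteoglycan that binds collagen, was at 877, 284, 1033 and 635 CPM in differentiating and 0.112, 0.127, 0.107 and 0.292 CPM in proliferating NSPCs (log2 fold-change 11.88, SE 1.50, FDR 0.000216). *Ogn*, osteoglycin, of the same family, had 19447 counts over the differentiating and 2 over the proliferating libraries, a ratio of 5278 (exact 95% counting interval 1461 to 43580). These genes were near 0 before, so that fitted fold-changes depend on the prior count. *Plxdc1*, a transmembrane receptor, was at 109, 137, 161 and 208 CPM in differentiating NSPCs and at most 0.224 CPM in proliferating ones, and *Cemip*, which breaks down hyaluronan, was at 1609.7, 535, 1672 and 1314 against 2.46, 2.15, 1.61 and 6.23 CPM. *Ahnak*, a large scaffold protein, was at 198, 304, 231 and 225 CPM in differentiating NSPCs and at most 1.56 CPM in proliferating ones. *Pcp4*, a calmodulin-binding protein, was at 77.4, 21.9, 109.8 and 107 against 0.112, 0.127, 0.214 and 1.07 CPM and lost its call without proliferating replicate 1 (FDR 0.0656) or 2 (FDR 0.0567).

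Of 45 tested genes for extracellular matrix and integrins, 24 rose and 3 fell, with a median of 1.47. *Sparc*, a secreted matrix-binding glycoprotein, was at 7471, 2810.5, 7951 and 4992 CPM in differentiating and 456, 515, 360.1 and 521 CPM in proliferating NSPCs. *Fn1*, fibronectin, was at 5609.9, 388, 4433 and 1278 against 81.1, 67.6, 51.6 and 60.7 CPM (log2 fold-change 4.88, SE 0.72, FDR 0.000506), with differentiating replicate 2 the lowest of its group and still above all proliferating libraries. Without differentiating replicate 2, 34 of 46 genes of the list rose and 3 fell. Of 19 TGF-beta pathway genes, 13 rose and 1 fell, and without differentiating replicate 2 this was 17 and 1 of 20, and without proliferating replicate 4 it was 9 and 1 of 20. *Thbs1*, thrombospondin 1, which activates latent TGF-beta, was at 1860.1, 997, 2449 and 1743 against 8.84, 15.3, 12.97 and 4.28 CPM.

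Targets of YAP and TEAD, the effectors of Hippo signalling that respond to stretch and adhesion, rose in 14 of 18 cases with 1 lower and a median of 2.27. *Ccn1*, a matricellular protein, was at 901, 212, 695 and 445 CPM in differentiating and 12.4, 6.71, 5.36 and 14.2 CPM in proliferating NSPCs (log2 fold-change 5.78, SE 0.65, FDR 0.000115). Its relative *Ccn2* was at 1971, 94.97, 2585 and 626 against 0.783, 1.01, 0.429 and 3.60 CPM, with the lowest differentiating library still far above the highest proliferating one. *Amotl2* and *Ajuba*, feedback regulators of the pathway that were chosen after their values were seen, rose by 4.55 (SE 0.25, FDR 6.53e-06) and 3.001 (SE 0.12, FDR 1.63e-06). Of 25 immediate early genes and targets of the serum response factor, 13 rose and 4 fell. The contractile genes were among the risers, *Acta2*, smooth muscle actin, at 503, 85.8, 550.04 and 329 against 0.224, 0.380, 0.214 and 0.0973 CPM and *Myl9*, a myosin light chain, at 204, 85.2, 197 and 125 against 3.13, 1.39, 2.47 and 5.06 CPM. *Srf* itself was not called (FDR 0.343).

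Promoter windows of 3 YAP and TEAD targets that rose are shown as for the cell cycle genes, from GRCm38.p6, with capitals at the letters GGAATG on either strand, the core of the TEAD motif.
Ccn1 (chr3:145649986-145650235, minus strand): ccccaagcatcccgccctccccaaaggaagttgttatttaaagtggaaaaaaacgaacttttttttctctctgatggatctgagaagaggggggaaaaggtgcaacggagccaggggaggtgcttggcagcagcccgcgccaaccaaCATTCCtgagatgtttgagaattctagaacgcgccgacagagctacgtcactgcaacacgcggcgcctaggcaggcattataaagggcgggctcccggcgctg
Amotl2 (chr9:102717554-102717803, plus strand): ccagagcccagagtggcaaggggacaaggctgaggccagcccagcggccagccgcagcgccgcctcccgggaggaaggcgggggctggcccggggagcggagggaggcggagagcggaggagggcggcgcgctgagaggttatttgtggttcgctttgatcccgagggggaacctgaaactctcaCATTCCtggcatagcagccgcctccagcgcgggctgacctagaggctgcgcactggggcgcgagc
Ajuba (chr14:54577662-54577911, minus strand): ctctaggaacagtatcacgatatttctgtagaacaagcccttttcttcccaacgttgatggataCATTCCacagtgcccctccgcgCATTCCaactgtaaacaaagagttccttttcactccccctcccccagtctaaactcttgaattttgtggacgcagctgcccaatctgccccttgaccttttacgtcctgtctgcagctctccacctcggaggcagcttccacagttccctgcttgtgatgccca
These letters were in 8 of 13 matched windows of the list (61.5%), against 10.5% of the windows of tested genes and 12.6% of all windows.

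Markers of other cell types were examined because matrix and contractile genes are also made by mesenchymal cells. Of 20 mesenchymal and meningeal markers, 8 passed the filter, 5 rose and none fell, and the summed level of the list was 428 to 1012 CPM in differentiating against 114 to 175 CPM in proliferating libraries. *Ogn* alone was at 224, 255, 335 and 346 CPM in the differentiating libraries. Without differentiating replicate 2, all 8 tested markers were called higher. *Col1a1*, the main collagen of mesenchyme, was at 172, 9.01, 139 and 98.5 against 1.12, 0.759, 0.322 and 0.779 CPM and was not called (FDR 0.0730), but was without differentiating replicate 2 (FDR 3.37e-05) and with the replicate number as a block (FDR 0.000461). *Col1a2* reached 16.6 CPM in differentiating replicate 3 and at most 5.30 CPM elsewhere, and *Col3a1* and *Dcn*, which mesenchymal cells express strongly, stayed at or under 0.764 and 0.940 CPM in every library. *Dcn* was at 0 in all 4 proliferating libraries. Their part in the rise of matrix genes was not tested. Of 12 ependymal and choroid plexus markers, 4 passed the filter and all 4 rose, with a median of 4.31. Among them *Foxj1*, the master factor of motile cilia, was at 181, 457, 192 and 281 against 12.2, 7.72, 13.3 and 22.3 CPM, and *Ttr*, the choroid plexus marker, was at or under 0.189 CPM in every library. Of 20 markers of endothelium, pericytes, microglia and blood, 2 passed the filter, 1 higher and 1 lower, and the summed level was 13.3 to 37.7 against 10.7 to 15.6 CPM. *Pecam1*, *Ptprc* and *Csf1r* did not exceed 0.487, 0.214 and 0.294 CPM.

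**Figure D3:**
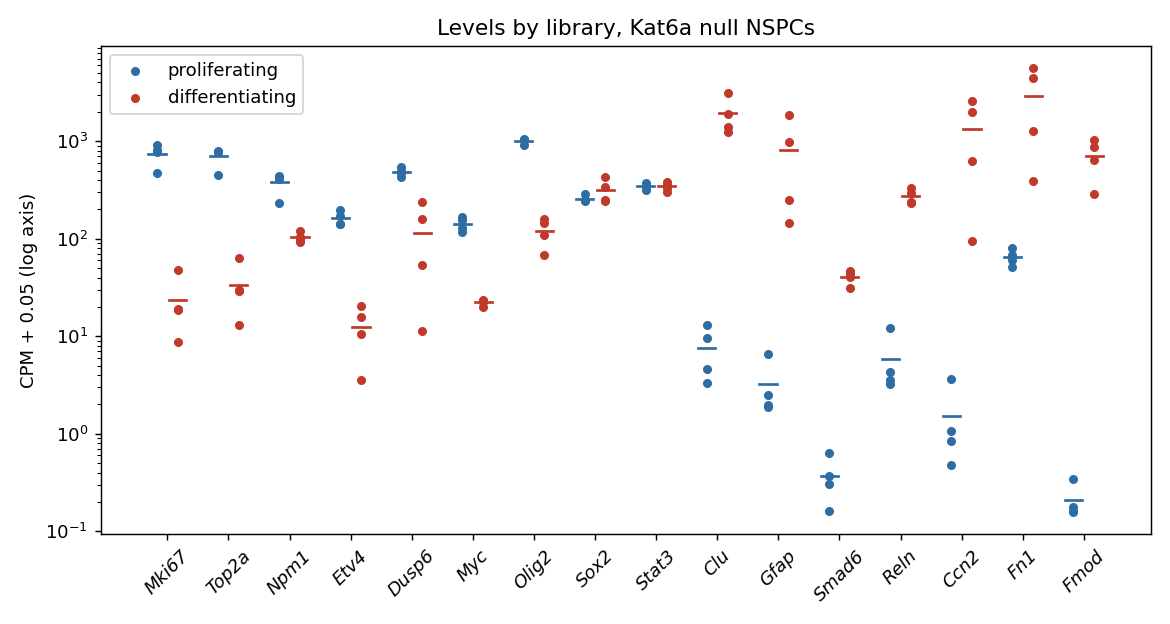
CPM of 16 genes in the 8 *Kat6a*–/– libraries on a log axis (0.05 CPM added to all values), 1 point per library and gene, with horizontal bars at the group means. The cell cycle and growth factor genes sit lower in differentiating libraries, the glial, BMP and matrix genes higher, and *Sox2* and *Stat3* overlap.

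Under the same limits, the 12 largest falls were those of *Cd93*, *Tle6*, *Itga4*, *Fbln2*, *Prr18*, *Troap*, *Col28a1*, *E2f8*, *Pclaf*, *Mki67*, *Rtkn2* and *Slc6a11*. *Cd93*, a transmembrane lectin of endothelial and blood cells, was at 8.84, 0.983, 7.05 and 1.20 CPM in differentiating and 539, 757, 578 and 307 CPM in proliferating NSPCs (log2 fold-change −7.45, SE 0.74, FDR 6.13e-05). *Itga4*, an integrin subunit that binds fibronectin and VCAM1, went from 260.04, 397, 296 and 308 to 9.37, 1.97, 7.22 and 3.15 CPM, and *Fbln2*, fibulin 2, a matrix glycoprotein, from 486, 712, 406 and 148 to 16.6, 1.35, 22.6 and 2.59 CPM, against the direction of most matrix genes. *Tle6*, a member of the Groucho family of corepressors, fell by 6.19 (SE 0.53, FDR 3.22e-05). *Slc6a11*, a GABA transporter, fell from 185, 155, 247 and 48.3 to 1.74, 18.5, 0.705 and 4.04 CPM, with proliferating replicate 4 the lowest of its group and differentiating replicate 2 the highest of its own.

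Interferon response genes rose in 15 of 23 cases with 2 lower and a median of 1.57. *Ifit3*, an interferon-induced antiviral protein, was at 15.9, 14.6, 16.6 and 8.58 CPM in differentiating and 0.224, 0.127, 0.107 and 0.584 CPM in proliferating NSPCs (log2 fold-change 5.58, SE 0.71, FDR 0.000209), a low level in both. Of 14 genes for MHC class I antigen presentation, 9 rose and none fell, with a median of 1.23. *Tapbp*, which loads peptide onto MHC class I, rose evenly from 31.1, 23.5, 21.8 and 32.1 to 188, 179.6, 201 and 168 CPM, and *B2m*, the invariant chain, from 69.1, 68.1, 68.6 and 70.5 to 203, 93.8, 238 and 135 CPM.

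Of 27 cholesterol synthesis genes, 19 fell and 2 rose, with a median of −0.90. *Idi1*, which makes isoprenoid units, fell by 2.41 (SE 0.18, FDR 2.04e-05). *Abca1*, which exports cholesterol, rose by 4.34 (SE 0.42, FDR 5.47e-05) to 529, 615, 521 and 494 CPM. Of 13 fatty acid synthesis genes, 6 fell, 2 rose and 5 were not called, and their summed levels overlapped (6674 to 9764 CPM in differentiating against 7136 to 8918 CPM in proliferating libraries). *Fasn*, fatty acid synthase, fell by 1.67 (SE 0.17, FDR 6.75e-05) and the elongase *Elovl6* by 2.58 (SE 0.19, FDR 2.00e-05). Genes for lysosomes and the proton pump rose, 23 of 35 with 2 lower, *Ctsl*, cathepsin L, from 60.1, 69.1, 64.6 and 83.03 to 658, 400.5, 659.9 and 424 CPM and *Lamp1*, a major lysosomal membrane protein, from 555, 478, 504 and 627 to 1271, 1375, 1235 and 1074 CPM. Glycolysis and hypoxia genes rose in 14 of 25 cases with 2 lower and a median of 0.76, among them *Slc2a1*, the glucose transporter GLUT1, by 1.48 (SE 0.14, FDR 4.22e-05) and the glycolytic enzyme *Pgk1* by 1.28 (SE 0.16, FDR 0.000202). Nuclear genes for oxidative phosphorylation moved little, with 25 of 78 higher, 3 lower and a median of 0.15. Genes for mitochondrial ribosomal proteins fell in 25 of 78 cases and rose in 8, with a median of −0.19. Without proliferating replicate 4, 27 fell and 5 rose.

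Gene groups with no common direction were p53 targets (4 of 24 higher, 6 lower), ATF4 and amino acid stress genes (8 of 26 higher, 6 lower) and Wnt pathway genes (7 of 23 higher, 6 lower). Axon guidance genes were more often higher (15 of 33) than lower (8), with a median of 0.62. Most clustered protocadherins were not called (36 of 44), with 7 higher and 1 lower. Without differentiating replicate 2 and proliferating replicate 4, 11 of 24 Wnt genes were higher and 9 lower. For p53 targets this was 7 and 4 of 24, and for ATF4 genes 9 and 10 of 26. Over all genes of that fit it was 4462 and 4473 of 12810, so calls grew in general. Glutamate and GABA receptor and transporter genes were more often lower (11 of 21) than higher (3).

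The differentiating libraries were not alike. Replicates 1 and 3 stood together against replicate 2, with replicate 4 between them, across genes of several groups. *Fn1*, *Ccn2*, *Ccnd1*, *Spry4*, *Dusp6* and *Hmga2* were highest in replicates 1 and 3 and lowest in replicate 2, and *Gfap*, *Aqp4* and *Id4* were highest in replicate 2 and lowest in replicate 1. The summed level of matrix and integrin genes was 35270, 13650, 34800 and 20650 CPM in replicates 1 to 4, against 9029, 9830, 9069 and 8643 CPM in the proliferating libraries. For astrocyte markers it was 9073, 21340, 10460 and 12980 CPM against 4330, 3466, 3570 and 4497 CPM. Replicate 2 thus had the lowest matrix level and the highest astrocyte level of the 4, and both lists remained above every proliferating library in all 4. *Id4*, a radial glia and astrocyte inhibitor of DNA binding, was at 66.7, 348, 71.01 and 139.8 CPM. The cell cycle lists did not follow this order, since the summed level of G2 and mitosis genes was 520.2, 306, 499 and 809 CPM, highest in replicate 4. Replicates 1 and 2 came from one litter under different embryo labels. What set these libraries apart was not tested.

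**Figure D4:**
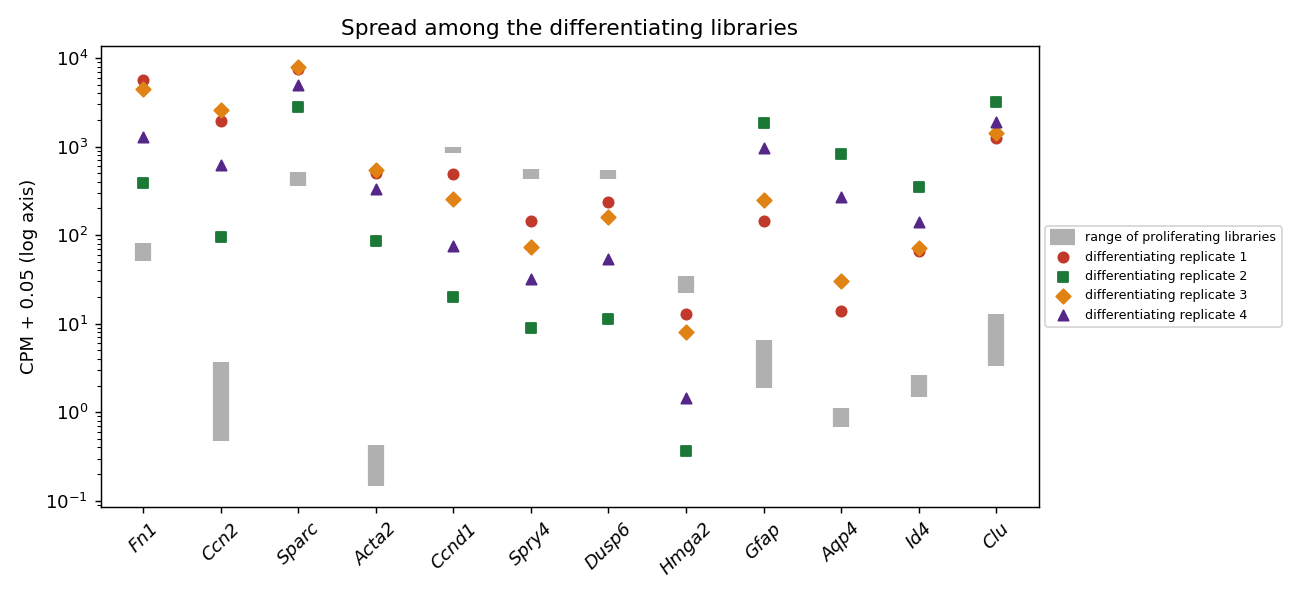
CPM (log axis) of 12 genes in the 4 differentiating *Kat6a*–/– libraries, 1 symbol per replicate, with a grey bar for the range of the 4 proliferating libraries (0.05 CPM added to all values). Replicates 1 and 3 lie close together for most genes and replicate 2 lies at the opposite end.

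Proliferating replicate 4 stood apart too. Its summed level of S phase genes was 2983 CPM against 4516 to 5104 CPM in the other proliferating libraries, of G2 and mitosis genes 4399 against 6914 to 7248 CPM, and of ribosome biogenesis genes 2913 against 4664 to 4791 CPM. All remained above the differentiating libraries, and the direction of these lists was the same in each litter.

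To ask whether *Kat6a*–/– NSPCs answered the change of medium as *Kat6a*+/+ NSPCs did, the difference of the 2 responses was tested in a fit of all 24 libraries. These held 4 *Kat6a*+/+ (WT) and 4 *Kat6a*+/– (HET KO) libraries per condition, of the same age, media and kits, beside the 8 *Kat6a*–/– ones, and the *Kat6a*+/– libraries entered the filter, the scaling and the estimates of spread but not the contrast itself. Of 13586 genes tested, 1895 differed in response, or 13.9%, 865 with a more positive and 1030 with a more negative response in *Kat6a*–/– NSPCs. Across genes the 2 responses had a Pearson's r of 0.853 and a Spearman's rho of 0.856, as a description, since genes are not independent replicates, and both share the kit change. Of the 1895 genes, 775 moved in the same direction but further in *Kat6a*–/– NSPCs, 531 in the same direction but less far, and 589 in the opposite direction. The split between more positive and more negative responses depended on the scaling: library totals gave 531 and 1874 and shifted the median over all genes by −0.15. It also depended on the *Kat6a*+/– libraries, since a fit of the other 16 libraries alone called 1565 genes, 550 more positive and 1015 more negative.

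Cell cycle genes fell further in *Kat6a*–/– NSPCs. Of 45 tested G2 and mitosis genes, 42 had a more negative response and none a more positive one, with a median response of −4.12 in *Kat6a*–/– against −1.70 in *Kat6a*+/+ NSPCs. For S phase genes it was 34 of 45, with medians of −2.998 and −1.83. *Mki67* was at 246, 216, 269 and 145 CPM in differentiating and 975, 894, 998 and 747 CPM in proliferating *Kat6a*+/+ libraries, and its response differed by −3.17 (SE 0.44, FDR 0.000179). *Ankle1*, a nuclease and 1 of the 6 most negative response differences among genes with an average log2 CPM above 2, fell to 0.688, 0.372, 0.663 and 3.62 CPM in *Kat6a*–/– and stood at 12.4, 16.6, 13.2 and 8.09 CPM in *Kat6a*+/+ differentiating NSPCs (response difference −3.82, SE 0.61, FDR 0.000357). Under library totals the counts were 44 and 40 genes, with none positive in either list.

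Proneural genes were among those with a more negative response in *Kat6a*–/– NSPCs. Of 14 tested intermediate progenitor and proneural genes, 7 had a more negative and none a more positive response, with a median response of −0.74 in *Kat6a*–/– and 0.92 in *Kat6a*+/+ NSPCs. *Dll3* rose from 5.11, 4.09, 7.75 and 5.83 to 44.5, 7.65, 33.1 and 16.4 CPM in *Kat6a*+/+ libraries and fell in *Kat6a*–/– ones (response difference −4.77, SE 1.11, FDR 0.00681). *Insm1*, a zinc finger factor of neuronal progenitors, rose from 8.42, 7.94, 6.64 and 7.86 to 172, 51.7, 146 and 83.3 CPM in *Kat6a*+/+ libraries and was at 12.3, 14.6, 17.9 and 10.2 and 4.89, 5.54, 5.34 and 13.1 CPM in proliferating and differentiating *Kat6a*–/– ones (response difference −4.69, SE 0.87, FDR 0.00119). *Dcx* and *Tox*, of new neurons and of the developing cortex, had response differences of −4.001 (FDR 0.0381) and −4.01 (FDR 0.0315), but lost the call in 7 and 5 of 16 fits that left out 1 library, and in the fit without the *Kat6a*+/– libraries (FDR 0.0627 and 0.0702). *Frem1*, a matrix protein, rose in *Kat6a*+/+ from 1.04, 0.842, 1.71 and 2.28 to 11.3, 10.4, 12.502 and 10.1 CPM and was at 29.9, 14.9, 16.2 and 30.95 and 9.84, 17.2, 7.28 and 9.78 CPM in proliferating and differentiating *Kat6a*–/– libraries (response difference −4.21, SE 0.61, FDR 0.000189).

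More positive responses were found for glycolysis and amino acid stress genes, but not for all metabolic groups and not only there. They were 0 of 78 for oxidative phosphorylation and 1 of 27 for cholesterol synthesis. For reactive glia and STAT3 genes they were 7 of 24, and for immediate early genes and serum response factor targets 7 of 25. Cytosolic ribosomal protein genes had 14 of 83, against 865 of all 13586 genes. None of these 5 lists had a more negative response in the reported fit. Under library totals, 7 oxidative phosphorylation genes and 1 reactive glia gene had a more negative one. Only 4 cytosolic ribosomal protein genes then had a more positive one. YAP and TEAD targets had 5 of 18 more positive and 1 more negative, matrix and integrin genes 8 of 46 and 1, and FGF and EGF pathway genes 4 of 24 and 2. Without differentiating replicate 2, the matrix list had 21 and 3 and the FGF and EGF list 14 and 2, against 1450 and 2070 over all genes. Of 27 glycolysis and hypoxia genes tested, 11 had a more positive and none a more negative response, with medians of 0.55 in *Kat6a*–/– and −0.75 in *Kat6a*+/+ NSPCs. Under library totals 8 remained positive and none was negative. *Pgk1* was at 96.1, 91.5, 106 and 106 CPM in differentiating and 91.1, 124, 65.1 and 105 CPM in proliferating *Kat6a*+/+ libraries (response difference 1.20, SE 0.30, FDR 0.0111). *Adm*, adrenomedullin, a secreted peptide that hypoxia induces, fell by 5.61 in *Kat6a*+/+ and had a response difference of 4.66 (SE 1.20, FDR 0.0127). Of 26 ATF4 and amino acid stress genes, 11 had more positive and none more negative responses, and under library totals this was 7 and none. *Lif*, an IL-6 family cytokine, *Adamts14*, a procollagen protease, and *Sfrp4*, a secreted Wnt modulator, had response differences of 3.87 (FDR 0.0163), 3.70 (FDR 0.00475) and 3.87 (FDR 0.0100). *Ahnak* and *Prelp*, a matrix proteoglycan, were also among the 6 most positive above the same average log2 CPM, with 3.71 (FDR 0.0302) and 4.41 (FDR 0.0472), and lost the call in 4 and 13 of 16 fits that left out 1 library. With the replicate number as a block *Ahnak* lost it too (FDR 0.0707). The BMP target *Id1* rose less in *Kat6a*–/– NSPCs (response difference −1.75, SE 0.32, FDR 0.00115). The glial markers *Gfap* and *Clu* were not called (FDR 0.465 and 0.270), but these 2 do not stand for all glial markers. Of 24 astrocyte markers, 1 had a more positive and 4 a more negative response, and of 25 radial glia markers 2 and 7, against 865 and 1030 of all 13586 genes. Without differentiating replicate 2, 3520 genes differed in response.

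**Figure D5:**
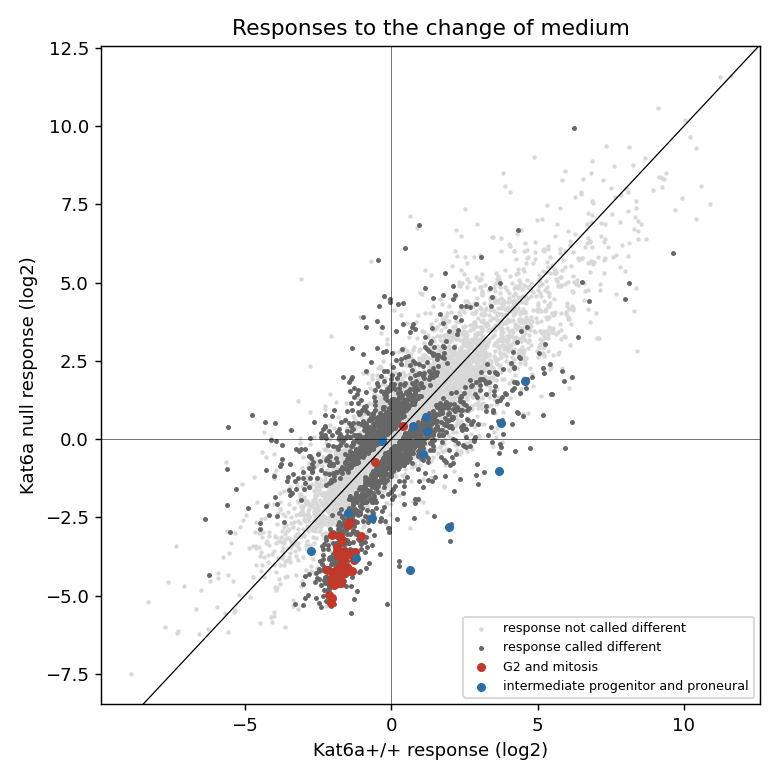
Fitted log2 responses to the change of medium in *Kat6a*+/+ (x axis) and *Kat6a*–/– NSPCs (y axis) for 13586 genes, with genes whose responses differed in dark grey, G2 and mitosis genes in red, and intermediate progenitor and proneural genes in blue. All but a few red points lie far below the line of equal response, and several blue points lie right of 0 and below it.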

How the data were processed

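Gene counts per library were deposited by the authors, who aligned stranded mRNA reads to mm39 and counted them per gene with featureCounts. Tool versions and the strand setting are not given in the sources used here. All values here were computed from those counts. Protein-coding genes were kept, by a RefSeq gene table matched by gene ID for 26359 of 26411 genes, *Xist* and Y-linked genes were removed, and genes with low counts were dropped with filterByExpr. Libraries were scaled by TMM (edgeR 4.0.16) and fitted with limma-voom (limma 3.58.1, R 4.3.3), treating litter as a random effect (estimated correlation −0.175), with FDR by Benjamini-Hochberg adjustment. Members and gene lists were chosen with earlier results of these data known. Named genes were list anchors, the 12 largest rises and falls with an average log2 CPM above 2 and no overlap between groups, each list's largest called rise and fall, and the 6 largest called response differences each way above the same average log2 CPM. Replicate numbers of the *Kat6a*–/– libraries shared a litter by the labels, which pairs the samples, but deviations of same-numbered libraries correlated at −0.115 to −0.0666. *Kat6a*+/+ replicate 2 carried different litter labels in the 2 conditions, and the replicate block of the response difference paired these libraries all the same. Alternatives used edgeR, DESeq2 1.42.0, other scalings, filters, blocks and weights, and left out libraries. The procedure was tested on simulated data. Promoter windows came from RefSeq (GRCm38.p6), another build than the counts, and were matched by gene ID for 10233 of the 12752 tested genes. List members were then picked by symbol. Some named genes are not reported here.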

Additional observations from a re-analysis of the deposited data

Results flagged for a closer look

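In 18 of 232 sets of 4 libraries, 1 library lay far from the other 3 by Dixon's test on log2(CPM + 0.5), and chance flags about 1 in 20 such sets. Differentiating replicate 1 stood apart for *Ajuba* (228 CPM). Differentiating replicate 2 stood apart for *Elovl6* (42.3 CPM), *Gap43* (127 CPM), *Il6st* (786 CPM), *Nop56* (25.8 CPM) and *Socs3* (30.1 CPM). Differentiating replicate 4 stood apart for *Insm1* (13.1 CPM) and *Pcna* (54.9 CPM). Proliferating replicate 3 was flagged for *Bmp6* (0.107 CPM), but the other proliferating libraries were at 0, so that 1 count forced the flag. The rate of 1 in 20 does not hold for such tied values. *Fmod*, flagged next, was also near 0, at 0.107 to 0.127 CPM in the other proliferating libraries. Proliferating replicate 4 stood apart for *Fmod* (0.292 CPM), *Nop56* (104 CPM), *Npm1* (235 CPM), *Olig2* (919 CPM), *Pclaf* (92.4 CPM), *Pcp4* (1.07 CPM), *Rtkn2* (44.2 CPM), *Sox3* (97.8 CPM) and *Top2a* (450.3 CPM).

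The response to the change of medium differed between *Kat6a*–/– and *Kat6a*+/+ NSPCs, by the test of the difference itself in limma, for 44 of the genes named here. On the log2 scale it was more positive in *Kat6a*–/– NSPCs for *Adm* (4.66), *Prelp* (4.41), *Sfrp4* (3.87), *Lif* (3.87), *Ahnak* (3.71), *Adamts14* (3.69), *Serpina3n* (3.09), *Fn1* (2.77), *Slc2a1* (1.64), *Gap43* (1.45), *Nes* (1.25), *Pgk1* (1.20), *Amotl2* (1.09), *Myc* (1.02), *Ctsl* (0.77) and *Stat3* (0.75). It was more negative for *Pcna* (−0.70), *Id3* (−0.72), *Notch1* (−0.82), *Olig2* (−0.91), *Glul* (−0.94), *Fgfr2* (−0.998), *Nfix* (−1.06), *Slc1a3* (−1.12), *Zbtb20* (−1.38), *Pdgfra* (−1.65), *Id1* (−1.75), *Dll1* (−1.85), *Cdk1* (−1.98), *Rtkn2* (−2.01), *Rrm2* (−2.50), *Cdc6* (−2.68), *Ccnb1* (−2.82), *Top2a* (−2.87), *Troap* (−2.98), *Mki67* (−3.17), *E2f8* (−3.19), *Pclaf* (−3.32), *Ankle1* (−3.82), *Dcx* (−4.001), *Tox* (−4.01), *Frem1* (−4.21), *Insm1* (−4.69) and *Dll3* (−4.77). Of these, *Ahnak*, *Amotl2*, *Ctsl*, *Dcx*, *Fgfr2*, *Fn1*, *Olig2*, *Pcna*, *Pdgfra*, *Prelp*, *Serpina3n*, *Slc2a1* and *Tox* lost the call in at least 1 of the 16 fits that left out 1 library. *Prelp*, *Slc2a1*, *Fn1* and *Pcna* lost it in most of them (13, 12, 11 and 10). What set these libraries and responses apart was not tested.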

How the results depend on the processing

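The number of genes called between differentiating and proliferating *Kat6a*–/– NSPCs was 6440 to 8326 when 1 library was left out and 7610 to 9409 under other tests, scalings, filters, blocks and weights, within 1.5 times the reported 7701 in each. With the replicate number as a block it was 7696. The response difference with this block, fitted without the *Kat6a*+/– libraries, gave 1661 genes. Under that block *Insm1* lost its call in the *Kat6a*–/– contrast (FDR 0.0726) and *Tox* gained one (FDR 0.0405), while *Ctsl*, *Fgfr2* and *Pdgfra* lost the call of their response difference (FDR 0.0943, 0.0541 and 0.0871). Beside the changes given with *Aqp4*, *Col1a1* and *Ahnak*, the block changed no other call of a gene named here in the *Kat6a*–/– contrast. No other called response difference was lost, and *Ctsl* and *Pdgfra* were also lost in the same libraries without the block. Response differences gained under the block were not traced by gene. Among genes that the rule named, 82 were called with it and 66 in the same libraries without it. The count of response differences, 1895 as reported, was 1265 to 3520 when 1 library was left out, 4798 with sample quality weights and 3054 without differentiating replicate 2 and proliferating replicate 4, a setting chosen after seeing the data. Without the *Kat6a*+/– libraries it was 1565, and beside *Dcx* and *Tox* the calls of *Fn1*, *Pdgfra* and *Ctsl* were lost (FDR 0.0893, 0.0588 and 0.0581). Among the 250 tested genes that the rule named it was 76 as reported, 115 by DESeq2 and 137 with quality weights, and the cause was not tested. No call of a named gene turned its direction, while the medians of the radial glia, Wnt, p53, ATF4, GABAergic and endothelial lists, for which no direction is given, changed sign under some settings. Of the 102 genes named here that were called in the *Kat6a*–/– contrast, 95 kept the call in all 8 fits without 1 library, *Frem1*, *Insm1*, *Nes*, *Pcp4* and *Sfrp4* lost it in 1 or more, and *Ajuba* and *Amotl2* were not counted. *Nfib* and *Prtg* were left out of the counts and checks of named genes in these closing sections. Levels near 1 count per library limit the genes that were close to 0 in proliferating NSPCs.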
